A study of Homo sapiens with 4 samples.

Results

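The ER stress and ATF4 response genes were ATF4, ATF3, ATF6, DDIT3, DDIT4, XBP1, ERN1, EIF2AK3, CHAC1 and ASNS. They are 10 of the 27193 gene names on the array, and every non-control probe that carries one of these names was taken, which gave 14 of 34127 probes. ATF3 had 4 probes and CHAC1 had 2, while each of the other 8 genes had 1. The cells were THP1, an established human line of monoblastic acute myeloid leukemia that carries the MLL-AF9 fusion gene. They were transfected once with 30 nM of miR-511-5p mimic or of control mimic #1 (negative control #1 mimic), a synthetic RNA that serves as the reference treatment. All arrays shared the culture in DMEM/Ham's F12 with little serum and added BSA, and the harvest on day 2. The treatment was repeated in 2 experiments, each of which gave 1 array per treatment, so that 4 arrays were hybridized in all, and every group is 2 arrays of a single cell line. No untransfected sample is among these arrays. In bulk RNA of this kind, fewer cells of a type and less RNA per cell cannot be told apart.

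Unfolded proteins in the endoplasmic reticulum (ER) are sensed by membrane proteins, among them PERK (encoded by EIF2AK3), IRE1 (encoded by ERN1) and ATF6. PERK phosphorylates the translation factor eIF2 alpha, which slows most protein synthesis but favours translation of the ATF4 mRNA. IRE1 splices the XBP1 mRNA, and ATF6 is cut from its membrane to become a transcription factor. ATF4 is also made when amino acids are scarce, since other kinases phosphorylate the same site. Activity of these proteins is set largely by translation, splicing and cleavage, which an array of transcript levels does not read. The XBP1 probe is assigned to both XBP1 transcript variants, so the spliced and the unspliced form were not told apart here.

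The mature miRNA that the mimic supplies is given first, since it is the treatment. It is the RefSeq entry of hsa-miR-511-5p at chr10:17845122-17845142 (GRCh38.p14, plus strand), with its seed, bases 2 to 8, in capitals.
hsa-miR-511-5p: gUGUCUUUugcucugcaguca

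Promoters of members are given next because 2 sequence motifs named for this response were searched in the RefSeq promoter windows, which are 300 bases long and hold the annotated transcript start. The first motif was TGATGNAA, called CARE, a C/EBP-ATF element that ATF4 can bind. The second, called ERSE, was CCAAT and CCACG with 9 bases of any kind between them, the ER stress element to which ATF6 is recruited. Both strands were searched, and the motifs did not overlap each other in any member. CARE was found in 3.62% of 35116 windows of all genes. Among the members it was found in 3 of 15 windows, 1 each of ATF3, ASNS and CHAC1. ERSE was found in 0.0769% of all windows, and among the members in that of XBP1 alone. The ERSE match in XBP1 lies 52 to 34 bases before the start, and the CARE match in ASNS lies 68 to 61 bases before it. In CHAC1 the CARE match reads on the opposite strand, 209 to 202 bases before the start, and in ATF3 it lies 191 to 184 bases before. The windows of XBP1 and CHAC1 are shown because both hold a motif and passed the unadjusted limma threshold between experiments. Neither passed after adjustment. The window of ASNS, which did not pass, is shown as well, and that of ATF3, which did not pass either, is not. Motifs are in capitals. The windows shown are chr22:28800520-28800819 (minus strand) for XBP1, chr15:40953221-40953520 (plus strand) for CHAC1 and chr7:97872359-97872658 (minus strand) for ASNS, in GRCh38.p14. A match is a description of the letters, and binding was not measured.
XBP1: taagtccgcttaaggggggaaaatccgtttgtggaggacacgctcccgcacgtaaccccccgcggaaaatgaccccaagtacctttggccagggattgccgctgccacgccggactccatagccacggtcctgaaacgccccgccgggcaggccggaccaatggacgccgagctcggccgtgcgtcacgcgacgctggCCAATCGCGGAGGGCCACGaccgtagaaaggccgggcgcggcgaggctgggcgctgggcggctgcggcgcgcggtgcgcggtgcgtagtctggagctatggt
CHAC1: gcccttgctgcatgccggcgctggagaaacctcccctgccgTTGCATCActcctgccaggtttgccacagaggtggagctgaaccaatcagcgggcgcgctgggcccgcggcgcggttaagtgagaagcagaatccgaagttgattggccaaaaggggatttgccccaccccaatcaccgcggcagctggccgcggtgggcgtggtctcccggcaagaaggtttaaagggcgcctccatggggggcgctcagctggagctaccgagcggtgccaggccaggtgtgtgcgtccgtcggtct
ASNS: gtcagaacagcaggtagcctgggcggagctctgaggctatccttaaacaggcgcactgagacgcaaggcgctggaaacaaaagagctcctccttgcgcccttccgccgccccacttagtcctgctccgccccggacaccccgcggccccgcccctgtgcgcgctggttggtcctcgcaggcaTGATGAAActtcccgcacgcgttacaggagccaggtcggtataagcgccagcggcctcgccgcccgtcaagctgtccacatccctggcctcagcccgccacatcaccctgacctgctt

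All 14 probes were well above background on all 4 arrays, a call that the scanner software makes from the spot's signal and its local background. Per array, between 22130 and 23647 of all probes had that call, the lowest number on the miR-511 array of experiment 1, which also had the lowest median raw intensity (92.3, against 100.4 to 111.2 on the others). No spot was saturated. Of the monocytic marker genes on the array, 11 of 11 were well above background on all 4 arrays, among them CD33, CD68, CSF1R, MPO and SPI1. Among markers of other cell types, 0 of 4 epithelial, 1 of 4 T cell, 3 of 4 B cell and 2 of 4 erythroid genes were so as well. Values below are log2 intensities after quantile normalization. A probe's level is set only against its own level on other arrays, since the brightness of different probes is not comparable. Differences were tested with limma at an unadjusted p of 0.05, and Benjamini-Hochberg adjusted values over all tested probes are given beside them. The study set the same threshold. It also required a significant change across the identical copies of a probe, a criterion that was not applied here. An exact permutation test of 2 arrays against 2 has 0.333 as its smallest two-sided p.

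The first comparison asked whether miR-511 mimic altered these transcripts. None of the 14 probes passed the unadjusted threshold between miR-511 and control mimic, where 2.20% of 22638 tested probes did. After Benjamini-Hochberg adjustment in limma 0 probes passed over all those tested. The lowest levels with miR-511 mimic relative to control were those of DDIT4, an inhibitor of mTORC1 signalling, with a log2 fold change (log2FC) of -0.37, and of 1 of the 4 ATF3 probes, with -0.56. The other 12 probes had log2FC values between -0.10 and 0.11. The median size of the log2FC was 0.09 over the 14 probes and 0.08 over all tested probes. For 10 of the 14 probes the sign was the same in both experiments, which held for 51.0% of all tested probes, and for 4 of them the values of the treatments did not overlap, which held for 25.7%.

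**Figure D1:**
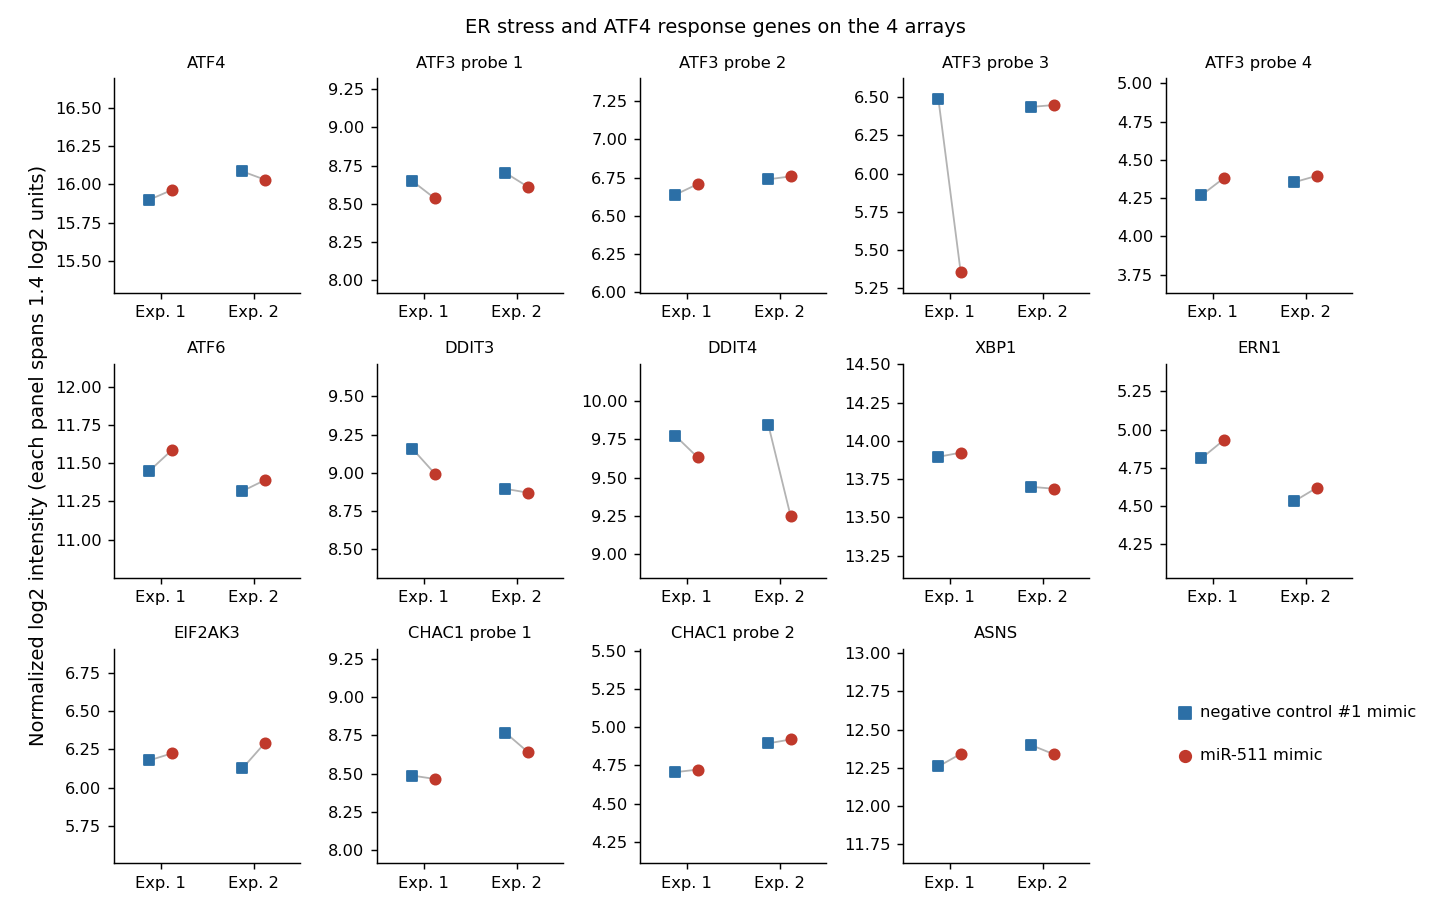
Normalized log2 intensity (vertical axis, each panel spanning 1.4 log2 units) of the 14 probes on the 4 arrays, with experiment 1 at the left and experiment 2 at the right of each panel, squares for control mimic and circles for miR-511 mimic, and probes of one gene numbered from the brightest. ATF3 probe 3 is low on the miR-511 array of experiment 1 alone (5.36), DDIT4 is lowest on the miR-511 array of experiment 2 (9.25), and XBP1 and ERN1 are lower in both arrays of experiment 2.

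Among the sensors, EIF2AK3 was measured at 88856582 to 88856641 of chromosome 2 (hg19, as for all probes). Its log2 values were 6.22 with miR-511 mimic and 6.18 with control mimic in experiment 1, and 6.29 and 6.12 in experiment 2. Both miR-511 values lay above both control values, with a log2FC of 0.11 (standard error 0.093, 95% interval -0.15 to 0.36). ERN1, at 62121087 to 62121146 of chromosome 17, had 4.93 and 4.81 with miR-511 and control mimic in experiment 1, and 4.62 and 4.53 in experiment 2. The miR-511 array was the higher one within each experiment, but the treatments overlapped because both arrays of experiment 2 were lower. Its log2FC was 0.10 (standard error 0.17, 95% interval -0.36 to 0.57). The fit did not pair arrays by experiment, so this standard error for ERN1 includes the difference between experiments. ATF6, at 161928720 to 161928779 of chromosome 1, behaved alike, with 11.58 and 11.45 in experiment 1 and 11.39 and 11.32 in experiment 2. Its log2FC was 0.10 (standard error 0.12, 95% interval -0.23 to 0.43). Each of these 3 transcripts was higher with miR-511 mimic in both experiments, without passing the threshold. The sign was the same in both experiments for 51.0% of all tested probes. With normexp background correction the log2FC was 0.052 for EIF2AK3, 0.023 for ERN1 and 0.050 for ATF6.

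Of the transcription factors, ATF4 is the translationally controlled activator of amino acid and stress genes. Its probe, at 39918577 to 39918636 of chromosome 22, had 15.96 and 15.90 with miR-511 and control mimic in experiment 1, and 16.03 and 16.09 in experiment 2. The treatments overlapped, and the log2FC was 0.0045 (standard error 0.11, 95% interval -0.30 to 0.31). XBP1, whose spliced mRNA encodes an activator of ER chaperone and degradation genes, had 13.92 and 13.90 in experiment 1 and 13.69 and 13.70 in experiment 2 at 29190733 to 29190792 of chromosome 22. With a log2FC of 0.0076 (standard error 0.14, 95% interval -0.37 to 0.39), the sign turned to -0.031 when the 1 XBP1 spot that the scanner software had marked as an outlier was kept. DDIT3, which encodes the pro-apoptotic factor CHOP, was measured on chromosome 12 by a probe whose coordinates span 57911200 to 57911526. Its values were 8.996 and 9.16 in experiment 1 and 8.87 and 8.90 in experiment 2, lower with miR-511 mimic in each, with a log2FC of -0.094 (standard error 0.13, 95% interval -0.46 to 0.27).

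ATF3, a stress-induced repressor of the same leucine zipper class, had 4 probes that did not read alike. The brightest, at 212793856 to 212793915 of chromosome 1, had 8.54 and 8.65 with miR-511 and control mimic in experiment 1, and 8.61 and 8.70 in experiment 2. Its miR-511 values lay below both control values, with a log2FC of -0.10 (standard error 0.094, 95% interval -0.36 to 0.16). The probe at 212788502 to 212788561 had 5.36 and 6.49 in experiment 1, and 6.45 and 6.44 in experiment 2. The miR-511 array of experiment 1 therefore stood 1.09 below the miR-511 array of experiment 2, while the control arrays differed by 0.053. Its log2FC was -0.56 (standard error 0.39, 95% interval -1.63 to 0.51). With normexp background correction the log2FC of this probe was -0.20, and its raw intensities were 35.4 to 96.5. The low value of 5.36 is on the array with the lowest median intensity, and the part of this in it was not tested. Leaving out the miR-511 array of experiment 2 brought the probe past the unadjusted threshold with a log2FC of -1.11, and leaving out that of experiment 1 gave -0.015. Each such fit sets 1 array against 2, and the lone array is assumed to vary as the other group does. The remaining ATF3 probes, at 212792519 to 212792578 and at 212792837 to 212792896, had log2FC values of 0.044 (standard error 0.096) and 0.077 (standard error 0.093). At the second of these, 4.38 and 4.40 with miR-511 mimic lay above 4.27 and 4.35 with control mimic. The sequences of the probe that stood apart and of one that did not are given as deposited, with their genome coordinates.
ATF3 probe at chr1:212788502-212788561: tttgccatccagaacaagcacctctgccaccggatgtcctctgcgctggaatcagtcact
ATF3 probe at chr1:212792837-212792896: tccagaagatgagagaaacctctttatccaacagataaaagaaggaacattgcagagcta

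Of the stress-induced target genes, DDIT4 had the largest difference in a gene with 1 probe, at 74035363 to 74035422 of chromosome 10. This probe was printed 10 times on each array, and the value of an array is the mean of its spots. In experiment 1 it was 9.63 with miR-511 mimic (spots from 9.45 to 9.84) and 9.77 with control mimic (9.66 to 9.91). In experiment 2 it was 9.25 with miR-511 mimic (9.17 to 9.29) and 9.84 with control mimic (9.77 to 9.96). The spots of the treatments thus overlapped in experiment 1 and were apart in experiment 2. Spots of one array share its RNA and are not replicates of the treatment. DDIT4 was lower with miR-511 mimic in both experiments, by 0.14 and 0.60, with a log2FC of -0.37 (1.29-fold lower, standard error 0.16, 95% interval -0.81 to 0.075, Benjamini-Hochberg adjusted p = 1.00 in limma). Leaving out the miR-511 array of experiment 1 brought it past the unadjusted threshold, with a log2FC of -0.56, in a fit of 1 miR-511 array whose spread comes from the control arrays. With normexp background correction the log2FC was -0.32.

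**Figure D2:**
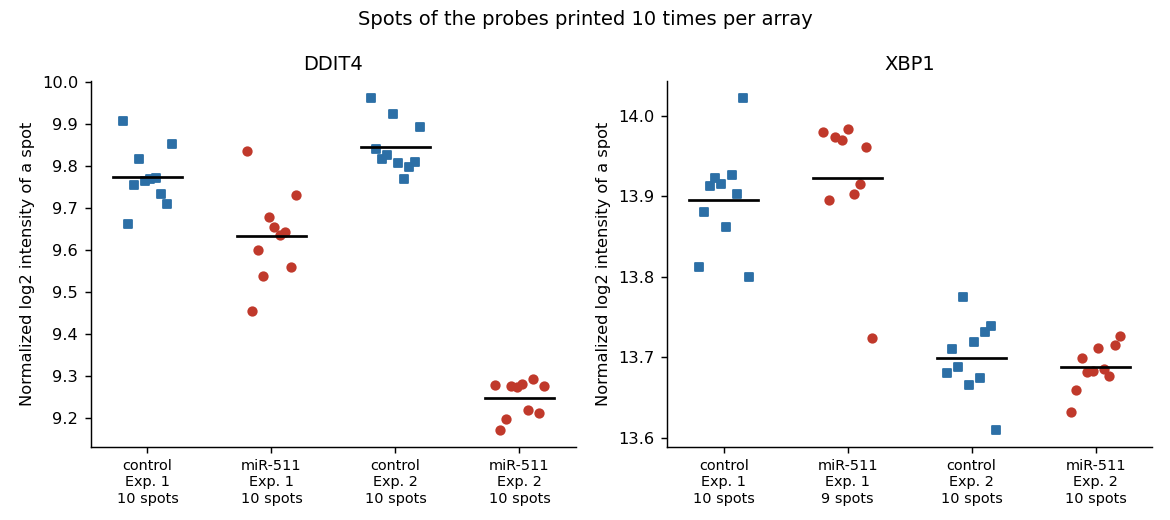
Normalized log2 intensity of each spot (vertical axis) of the DDIT4 and XBP1 probes, which were printed 10 times per array, by array, with squares for control mimic, circles for miR-511 mimic and bars for the array mean. DDIT4 spots of the miR-511 array of experiment 2 (9.17 to 9.29) lie below all others, and XBP1 means of experiment 2 (13.69 and 13.70) lie below those of experiment 1 (13.92 and 13.90).

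CHAC1 encodes an enzyme that degrades glutathione and is induced by ATF4. Its brighter probe, at 41248631 to 41248690 of chromosome 15, had 8.47 and 8.49 with miR-511 and control mimic in experiment 1, and 8.64 and 8.77 in experiment 2, with a log2FC of -0.074 (standard error 0.15, 95% interval -0.47 to 0.32). The dimmer one, at 41247814 to 41247873, had 4.72 and 4.71, then 4.92 and 4.89, with a log2FC of 0.021 (standard error 0.13). At both CHAC1 probes the treatments overlapped while the experiments did not. ASNS encodes asparagine synthetase, a classic ATF4 target. At 97481461 to 97481520 of chromosome 7 it had 12.34 and 12.26 in experiment 1 and 12.34 and 12.40 in experiment 2, and its log2FC was 0.012 (standard error 0.10, 95% interval -0.26 to 0.29). The ASNS value with miR-511 mimic was the same to 2 decimals in both experiments, and the control values lay on either side of it.

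**Figure D3:**
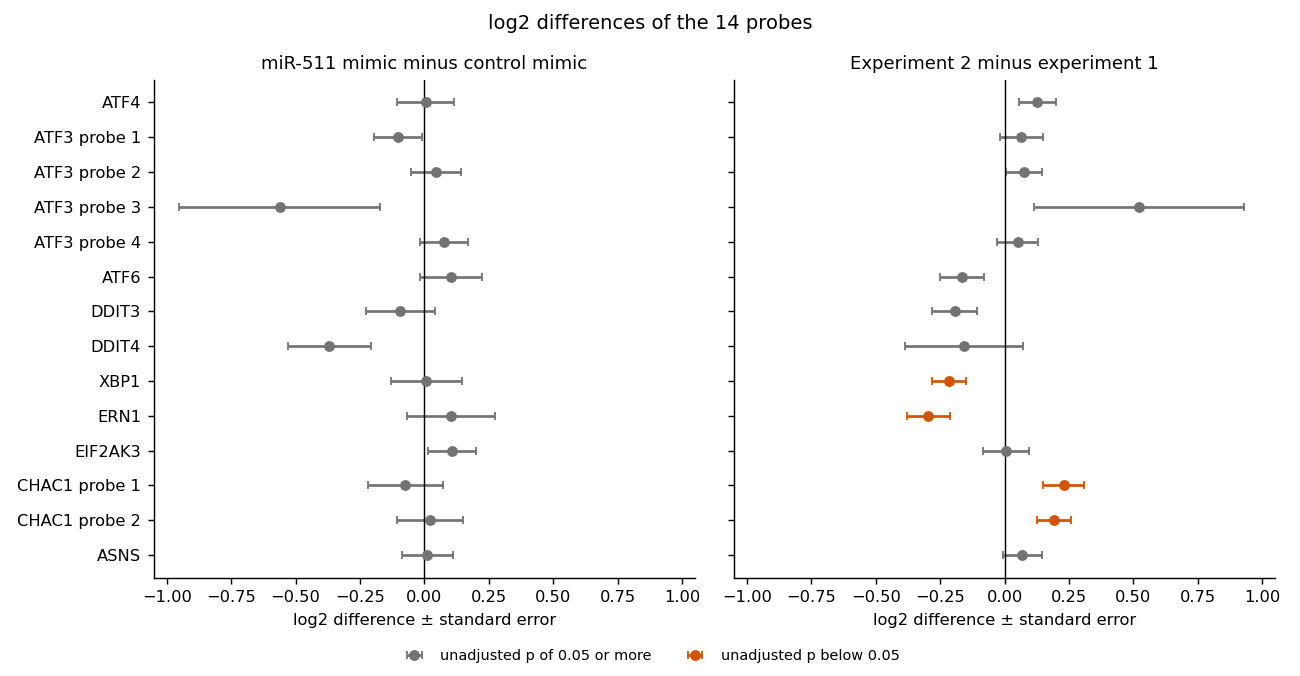
log2 difference (horizontal axis) with its standard error for each of the 14 probes, for miR-511 minus control mimic at the left and experiment 2 minus experiment 1 at the right, with probes of one gene numbered from the brightest and colour for an unadjusted p below 0.05 in limma. No probe is past the threshold at the left, and XBP1 (-0.22), ERN1 (-0.30) and both CHAC1 probes (0.23 and 0.19) are past it at the right.

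The other genes of the pathway gave the same count for the treatment. Of 77 listed names, 75 were on the array and 72 were tested, each by its brightest probe, and 0 passed the unadjusted threshold of limma, where 2.12% of 17996 tested genes did. FGF21, STC2 and WFS1 were not tested because they were not well above background. The median log2FC was 0.021 for the eIF2 alpha kinases and phosphatase subunits, 0.039 for the ATF4 and CHOP target genes, -0.0063 for the ATF6 and XBP1 target genes and 0.021 for sensor relatives and processing proteins, beside 0.010 for all tested genes. SESN2, a stress-induced regulator of mTORC1, was higher by 0.19 and 0.16 in experiments 1 and 2. Its log2FC was 0.18 (standard error 0.096), and its values of 7.32 and 7.23 with miR-511 mimic lay above 7.13 and 7.07 with control mimic. TRIB3, a pseudokinase induced by ATF4 and CHOP, had a log2FC of 0.054 (standard error 0.11). HSPA5, which encodes the main ER chaperone BiP, had 0.0079 (standard error 0.14), from -0.11 in experiment 1 and 0.12 in experiment 2. With the experiment as a block in the fit, the count over all probes was 894 in place of 498, and 0 members were called.

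The second comparison set the experiments against each other, over both treatments. XBP1 and ERN1 were lower in experiment 2 and both CHAC1 probes were higher, so that 4 of the 14 probes, of 3 of the 10 genes, passed the unadjusted threshold. This is 28.6% of the probes and 30.0% of the genes, beside 14.1% of 22596 tested probes and 14.3% of 17960 tested genes. Over all tested probes, 5.66% passed as higher and 8.46% as lower. None of the 4 passed adjustment, and over all probes 0 did, with 0.0632 as the smallest adjusted p from limma. Values of the experiments did not overlap for 8 of the 14 probes, beside 49.4% of all tested probes. The sign of the difference was the same in the miR-511 and the control arrays for 10 of the 14, beside 62.9%. The labels give the experiments a number only, so that culture, handling and other differences between them cannot be told apart.

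ERN1 and its substrate XBP1 were lower in experiment 2. The SD of an experiment is that of its 1 miR-511 array and 1 control array, so it is not a spread of repeats of one treatment. XBP1 had a mean log2 value of 13.91 ± 0.019 (SD, n = 2) in experiment 1 and 13.69 ± 0.0084 (SD, n = 2) in experiment 2. It fell by 0.22 on the log2 scale (1.16-fold lower, standard error 0.067, Benjamini-Hochberg adjusted p = 0.320 in limma), by 0.24 in the miR-511 arrays and 0.20 in the control arrays. ERN1 had 4.87 ± 0.084 (SD, n = 2) and 4.58 ± 0.062 (SD, n = 2) and fell by 0.30 (1.23-fold lower, standard error 0.084, adjusted p = 0.299 in the same limma fit). Both calls were lost in part of the other settings. That of XBP1 was lost with marked spots kept (-0.17) and with the treatment as a term in the fit. That of ERN1 was lost with an intensity trend and without variance moderation, where each probe's variance comes from its own 4 arrays alone. The ERN1 call was also lost with normexp background correction, where its difference was -0.070. The raw intensities of ERN1 were 22.6 to 30.6, against 13520 to 15900 for XBP1. Of the other sensors, ATF6 was lower in experiment 2 by 0.16 (standard error 0.085), with both values below those of experiment 1, and EIF2AK3 differed by 0.0071 (standard error 0.090, 95% interval -0.24 to 0.26). Neither passed the threshold.

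CHAC1 was higher in experiment 2 at both probes. The brighter probe had 8.48 ± 0.015 (SD, n = 2) in experiment 1 and 8.71 ± 0.089 (SD, n = 2) in experiment 2 and rose by 0.23 (1.17-fold, standard error 0.080, Benjamini-Hochberg adjusted p = 0.348 in limma). The dimmer one had 4.71 ± 0.012 (SD, n = 2) and 4.91 ± 0.018 (SD, n = 2) and rose by 0.19 (1.14-fold, standard error 0.067, adjusted p = 0.347 in the same limma fit). At this dim probe, with raw intensities of 22.5 to 32.7, normexp background correction left a difference of 0.030. At the brighter one it left 0.16. The 95% intervals of both reached down to 0.0070 and 0.0073, and neither probe passed with scaling to the 75th percentile, which gave 0.20 and 0.16. The call of the brighter probe was also lost without variance moderation and when dim probes were not filtered out. That of the dimmer one was lost with an intensity trend. With any 1 array left out, neither CHAC1 probe nor XBP1 was called, and ERN1 was called once, without the control array of experiment 1. Of the 4 called probes, 1 remained called with the treatment as a term in the fit (ERN1) and 1 with normexp background correction (XBP1).

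The other members did not pass the threshold between experiments. ATF4 was higher on both arrays of experiment 2, with 16.06 ± 0.038 (SD, n = 2) against 15.93 ± 0.044 (SD, n = 2) and a difference of 0.13 (standard error 0.072, 95% interval -0.074 to 0.33). DDIT3 was lower on both arrays of experiment 2, by 0.19 (standard error 0.088, 95% interval -0.44 to 0.051). ASNS had a difference of 0.069 (standard error 0.075) with overlapping values. DDIT4 had -0.16 (standard error 0.23), made of -0.39 in the miR-511 arrays and 0.071 in the control arrays. The 4 ATF3 probes had differences of 0.065, 0.076, 0.52 and 0.051 from the brightest to the dimmest. Of these, 0.52 (standard error 0.41) came from the low miR-511 array of experiment 1, and with normexp background correction it was 0.20.

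Among the pathway lists, 16 of 72 tested genes passed the unadjusted threshold of limma between experiments, beside 14.3% of all tested genes, and 0 did after adjustment. Of 30 ATF4 and CHOP target genes, 7 were higher (23.3%, beside 5.63% of all tested genes) and 2 were lower (6.67%, beside 8.72%), with a median difference of 0.048 beside -0.013 over all tested genes. Of 23 ATF6 and XBP1 target genes, 5 were lower (21.7%) and 0 were higher, with a median of -0.17. Values of the experiments were apart for 23 of the 30 ATF4 and CHOP target genes, 16 higher and 7 lower in experiment 2. Over all 17960 tested genes, 4051 were apart and higher and 4946 were apart and lower. In the ATF6 and XBP1 list the values were apart for 13 of the 23 genes, all of them lower in experiment 2. Beside this, 27.5% of all tested genes were apart and lower. HSPA5 and HERPUD1, an ER-associated degradation factor, had -0.20 (standard error 0.088) and -0.18 (standard error 0.066) and did not pass. Both passed with normexp background correction and with an intensity trend, under each of which 10 genes of the list were lower. HERPUD1 passed without variance moderation as well. The differences between these lists were not tested. The lists were chosen with earlier results of these data known, so their shares are a description only.

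**Figure D4:**
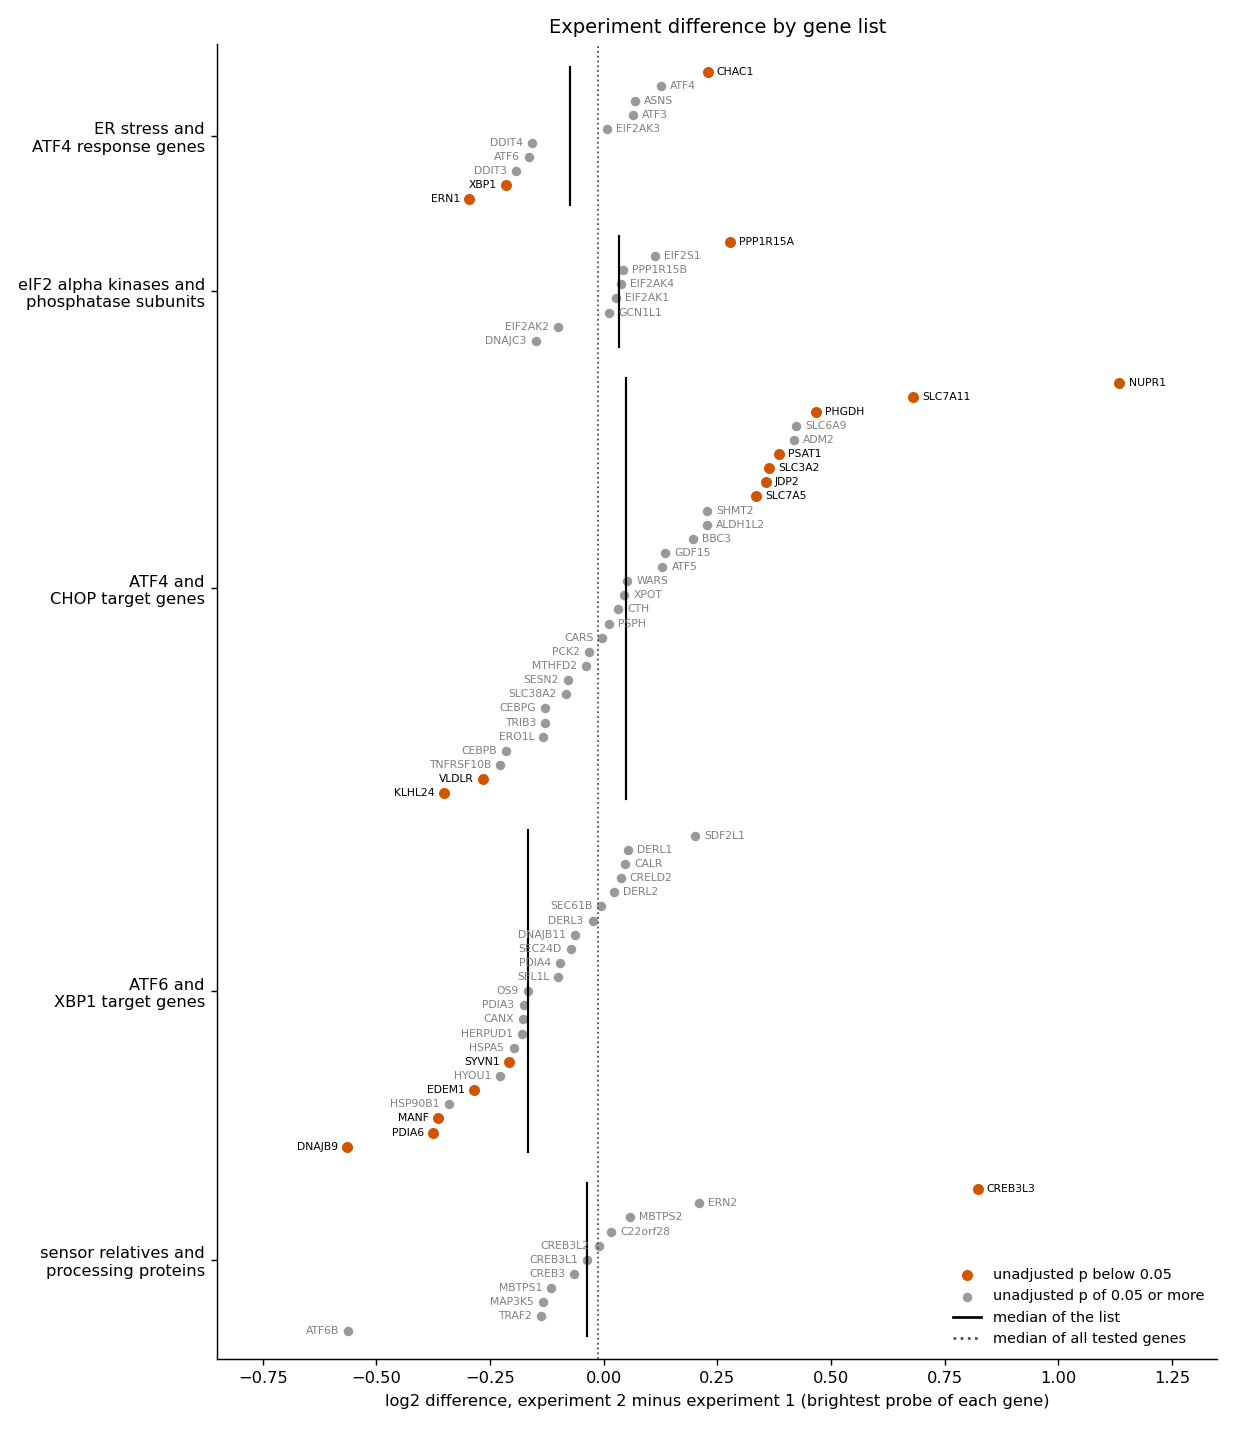
log2 difference, experiment 2 minus experiment 1 (horizontal axis), of the brightest probe of each gene of the 10 members and of the 4 pathway lists (rows, sorted within each list), with colour for an unadjusted p below 0.05 in limma, a solid line for the median of a list and a dotted line for that of all tested genes (-0.013). The ATF4 and CHOP target genes reach from -0.35 to 1.13 and the ATF6 and XBP1 target genes from -0.57 to 0.20.

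NUPR1, a small stress-induced chromatin protein, had the largest difference of a listed gene. Its log2 values were 6.74 and 7.08 with miR-511 and control mimic in experiment 1, and 8.03 and 8.06 in experiment 2. It rose by 1.13 (2.20-fold, standard error 0.14, Benjamini-Hochberg adjusted p = 0.179 in limma). The subunits of the cystine and glutamate exchanger, SLC7A11 and SLC3A2, rose by 0.68 (standard error 0.11) and 0.36 (standard error 0.076). SLC7A11 had 12.32 and 12.40 in experiment 1 and 13.15 and 12.93 in experiment 2. The serine synthesis enzymes PHGDH and PSAT1 rose by 0.47 (standard error 0.068) and 0.39 (standard error 0.086). PHGDH had 12.14 and 12.17 in experiment 1 and 12.64 and 12.60 in experiment 2. JDP2, a repressor of the AP-1 family, rose by 0.36 (standard error 0.067). The 2 target genes that were lower, KLHL24 (-0.35) and VLDLR (-0.27), are named after their values were seen. TRIB3 had -0.13 (standard error 0.075) and SESN2 -0.078 (standard error 0.11), so that these ATF4 targets did not pass.

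DNAJB9, a co-chaperone of BiP and a target of spliced XBP1, had 11.14 and 11.09 with miR-511 and control mimic in experiment 1, and 10.57 and 10.53 in experiment 2. It fell by 0.57 (1.48-fold lower, standard error 0.070, Benjamini-Hochberg adjusted p = 0.182 in limma). MANF, a secreted protein of the ER, fell by 0.36 (standard error 0.069), from 14.70 on both arrays of experiment 1 to 14.37 and 14.31. PDIA6, a disulfide isomerase, fell by 0.38 (standard error 0.13), the mean of a fall by 0.59 in the miR-511 arrays and by 0.16 in the control arrays. PPP1R15A, the eIF2 alpha phosphatase subunit GADD34, rose by 0.28 (standard error 0.076), with 9.04 and 8.97 in experiment 1 and 9.33 and 9.24 in experiment 2. It was the only called gene of 8 kinases and phosphatase subunits (12.5%, beside 14.3% of all tested genes). Of 11 sensor relatives and processing proteins, CREB3L3, a membrane-bound transcription factor cut in the manner of ATF6, was the only one called (9.09%, beside the same 14.3%), with 5.79 and 5.72 in experiment 1, 6.55 and 6.60 in experiment 2 and a rise of 0.82 (standard error 0.073). Of the 16 called genes, 8 were called in each of the 4 fits that left out 1 array and took the spread from the experiment with both arrays, namely NUPR1, PHGDH, SLC7A11, JDP2, KLHL24, DNAJB9, MANF and CREB3L3. SLC3A2 was called in 3 of them (not without the miR-511 array of experiment 2), PSAT1 in 2, PDIA6, SLC7A5 and EDEM1 in 1, and PPP1R15A, VLDLR and SYVN1 in 0. With the treatment as a term in the fit, 3 ATF6 and XBP1 targets were lower in place of 5. Without any 1 array, between 2 and 4 were, and between 5 and 8 ATF4 and CHOP targets were higher.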

How the data were processed

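RNA of 4 samples was labelled with Cy3 and hybridized to single-dye Agilent arrays with 60-base probes, all on 1 slide. The authors deposited scanner files with a processed intensity per spot (background subtracted, no normalization across arrays), flags for spots well above background or marked as outliers, and a table of log2 values. The deposited log2 values rank features as the intensities do (lowest Spearman correlation 1.0), and all columns share their quartiles. Per the labels the software was Agilent Feature Extraction 10.5.1.1 with limma, while the file headers give 10.7.3.1 and hg19.

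Here intensities of 43118 non-control spots were put on a log2 scale, 232 to 301 marked spots per array were left out, arrays were quantile normalized and spots of a probe averaged (R 4.3.3, limma 3.58.1). Probes were tested if each of the 4 arrays gave a value and if 1 of the groups compared was well above background on both its arrays, with lmFit and eBayes, without a block. A probe printed 10 times counted as above background when over 50% of its spots were. The experiment number in the labels pairs the arrays. Deviations of same-numbered arrays had a correlation of 0.271, and a fit with it as a block was an alternative, beside 75th percentile scaling, normexp (offset 50), other filters, marked spots kept, the deposited table, an intensity trend, the methods' t-test and leaving out each array. Functions were tested on simulated data. All 14 probes matched a RefSeq accession of their gene. Members and lists were chosen with earlier results of these data known. Named list genes were HSPA5, HERPUD1, DNAJB9, TRIB3, PPP1R15A, SESN2 and, per comparison, the 10 past the threshold with the largest differences. Nothing says whether arrays of one experiment came from separate cultures, so p-values measure the spread between these arrays. Where a probe lies in its transcript was not analysed here, nor were 3′UTRs.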

Additional observations from a re-analysis of the deposited data

Results flagged for a closer look

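These results were singled out because the difference had opposite signs in the 2 experiments or in the 2 treatments, with 1 array on each side. The members and the list genes named by the stated rule were looked at in this way, and the other listed genes were not. Whether the effects differ was not tested, as no replicate of either remains. For miR-511 minus control mimic, the log2 difference of the ATF3 probe at 212788502 was -1.13 in experiment 1 and 0.012 in experiment 2, 1.15 apart. ATF4 went from 0.063 to -0.054, a change of -0.12, ASNS from 0.082 to -0.059, a change of -0.14, and XBP1 from 0.027 to -0.012, a change of -0.039. Among the listed genes, PDIA6 went from 0.18 to -0.24, a change of -0.42, and CREB3L3 from 0.070 to -0.053, a change of -0.12. The change was 0.30 for SLC7A11, 0.23 for HSPA5, 0.12 for SLC3A2, 0.069 for PHGDH, 0.063 for MANF and 0.053 for JDP2, each from below 0 to above it.

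For experiment 2 minus experiment 1, the same ATF3 probe had 1.09 in the miR-511 arrays and -0.053 in the control arrays, -1.15 apart. DDIT4 had -0.39 and 0.071, which are 0.46 apart. EIF2AK3 had 0.067 and -0.053, a change of -0.12, and ASNS had -0.0020 and 0.14, a change of 0.14.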

How the results depend on the processing

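For miR-511 minus control mimic with an array left out, the log2FC of DDIT4 was -0.56 without the miR-511 array of experiment 1. It was -1.11 for the ATF3 probe at 212788502 without the miR-511 array of experiment 2. Under every alternative that kept all 4 arrays, 0 of the 14 probes passed, the fit without variance moderation included. The pathway genes gave 0 and, with an array left out, 0 to 2. Over all probes the count was 1029 when dim probes were not filtered out, 265 after normexp correction, 894 with the replicate block and 285 with an intensity trend, and 709 to 1440 with an array left out. Signs that turned were those of differences near 0. These were ATF4 (-0.0081 with 75th percentile scaling, -0.00090 with normexp), XBP1 (-0.031 with marked spots kept), the dimmer CHAC1 probe (-0.021 with 75th percentile scaling) and ASNS (-0.037 with normexp). With an array left out the log2FC lay between -0.088 and 0.097 for ATF4, between -0.0063 and 0.094 for the ATF3 probe at 212792519, between -0.22 and 0.037 for DDIT3, between -0.11 and 0.13 for XBP1, between -0.053 and 0.26 for ERN1, between -0.21 and 0.067 and between -0.078 and 0.12 for the brighter and the dimmer CHAC1 probe, and between -0.058 and 0.081 for ASNS.

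For experiment 2 minus experiment 1, 4 member probes passed in the reported fit. With 75th percentile scaling, with an intensity trend and without variance moderation, 2 did. With normexp 1 did, as did 1 with the treatment as a term (the additive fit that holds the replicate block for the treatment comparison), and with an array left out 0 to 2. In each fit without an array, 1 group is a single array, assumed to vary like the other group. Pathway genes numbered 16, or 26 with normexp and 11 to 13 with an array left out. Lower ATF4 and CHOP targets were 4 with normexp and with an intensity trend, and 1 whichever array was left out, while higher ones were 5 to 8 there. Lower ATF6 and XBP1 targets were 10 with normexp and with an intensity trend, 3 with the treatment as a term and 2 to 4 with an array left out, where 0 to 1 were higher. Over all probes 1990 to 3421 passed with an array left out. After adjustment 3 probes passed with normexp and 1 without variance moderation, none of them a member. Signs turned for an ATF3 probe (-0.017 at 212792519 with normexp) and for EIF2AK3 (-0.048 with 75th percentile scaling). With an array left out, DDIT4 lay between -0.46 and 0.14, EIF2AK3 between -0.076 and 0.090, and the ATF3 probes at 212788502 and 212792837 between -0.047 and 1.09 and between -0.0051 and 0.11. The cause of these changes was not tested.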
